A study of Mus musculus with 24 samples.

Results

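The 9 genes described here encode enzymes that act on benzene and its breakdown products: Cyp2e1, Ephx1, Nqo1, Gstt1, Gstm1, Gstp1, Adh1, Aldh2 and Sult1a1. They were taken by gene symbol from a table of 25229 symbols, and all 9 were in the table and passed the filter on low counts. The rule itself uses no measured value, but the members were chosen with earlier results of these data known. The samples are mRNA libraries of left ventricle with septum, all taken out of male C57BL/6 mice, in 4 groups of 6 libraries. TAC/Benzene mice had transverse aortic constriction, a narrowing of the aorta that raises the pressure the left ventricle pumps against, then 1 week of recovery, and then breathed air with 50 ppm benzene on 5 days of each week (6 hours daily) over 6 weeks. TAC/Air mice had the same surgery and breathed HEPA-filtered air instead. Sham/Benzene and Sham/Air mice had sham surgery with the same 2 exposures. No age is given in the sources used here, and no label ties a library to a named mouse, so the p-values below measure the spread between these libraries.

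Benzene is oxidised mainly in the liver, where the cytochrome P450 enzyme encoded by Cyp2e1 makes benzene oxide. That oxide is hydrolysed by microsomal epoxide hydrolase, conjugated with glutathione by glutathione transferases, or rearranges to phenol, which is oxidised further to hydroquinone and catechol. Nqo1 reduces the quinones formed from these compounds, sulfotransferases such as Sult1a1 conjugate phenols, and alcohol and aldehyde dehydrogenases act on ring-opened products. In the heart, Aldh2 and glutathione transferases are known for clearing aldehydes formed by lipid peroxidation.

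Depth ranged between 4170660 and 14632231 counts a library. The library Sham/Air 1 stood apart: it was the shallowest, and its highest rank correlation with any other library was 0.913. It gave the lowest or highest value of its group for 7 of the 9 members, as did Sham/Benzene 3, which was the lowest for all 7, and TAC/Benzene 2 did so for 6. Libraries in every group also differed in how their values tracked the GC content of transcripts, with rank correlations of a library's deviations with GC between -0.752 (Sham/Air 1) and 0.592. Albumin mRNA (Alb), which hepatocytes make, had 706, 223 and 105 counts in Sham/Benzene 1, 3 and 4 and at most 2 counts in each of the other 21 libraries. The summed level of 9 cardiomyocyte markers was at least 51960 CPM in every library, so the labelled tissue was seen in all of them. Calls lost or gained without Sham/Air 1, or without the 3 libraries with Alb, are named.

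Per kilobase of transcript, Gstm1 was the most abundant member in every group and Cyp2e1 the least. Mean levels of Gstm1, a mu-class glutathione transferase, were 139.5 CPM per kilobase in TAC/Benzene, 138 in TAC/Air, 173 in Sham/Benzene and 172 in Sham/Air hearts (CPM, counts relative to each library's TMM-scaled total). Cyp2e1 averaged 0.61, 1.34, 2.23 and 1.25 CPM per kilobase in TAC/Benzene, TAC/Air, Sham/Benzene and Sham/Air hearts. These Cyp2e1 levels rest on 7 to 65 counts a library, and the range of Cyp2e1 per kilobase did not overlap that of the next lowest gene, Adh1 in each group, in any of the 4 groups. Gstp1 came second in every group, with 91.3 CPM per kilobase in TAC/Benzene, 87.9 in TAC/Air, 114 in Sham/Benzene and 99.2 in Sham/Air. Aldh2, Nqo1 and Ephx1 lay between 36.3 and 71.9 CPM per kilobase on average. These ranks follow group means, and neighbours were not always set apart by the spread. Within each TAC group, Nqo1 overlapped Aldh2 and Aldh2 overlapped Ephx1. Gstt1 overlapped Adh1 in TAC/Benzene and both sham groups. In both sham groups Gstp1 overlapped Aldh2 and Aldh2 overlapped Nqo1, and in Sham/Air Gstm1 also overlapped Gstp1. Sult1a1 averaged 18.4 to 37.4 and Gstt1 10.5 to 17.7 CPM per kilobase. Gstp1 and Gstm1 have close copies in the mouse genome, and Gstp2 and Gstm2 held 1048 and 23337 counts over all libraries beside 21813 for Gstp1 and 53083 for Gstm1, and how reads shared between copies were counted is not stated in the sources used here, so these values are uncertain.

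**Figure D1:**
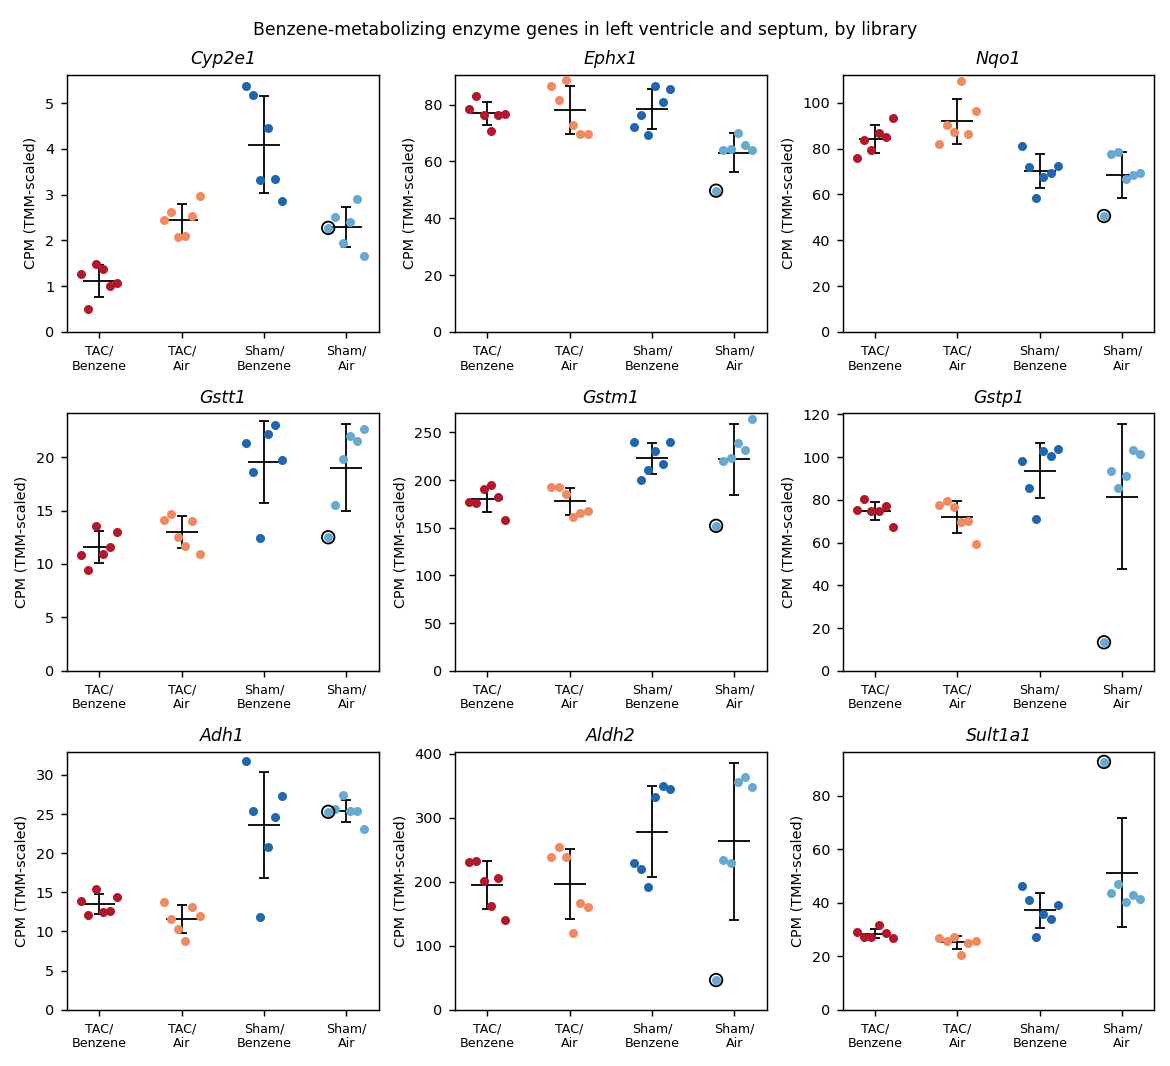
Level of each member in CPM on TMM-scaled library sizes (vertical axes, each starting at 0) for the 6 libraries of each group, with the mean and SD as a line and bars. Circled points are Sham/Air 1, and Cyp2e1 in TAC/Benzene hearts lies below all libraries of the other 3 groups.

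The windows below hold the 250 bases before the annotated start of 4 members, shown because Cyp2e1 moved with benzene after TAC, Nqo1 was higher after TAC, and Adh1 and Sult1a1 had the largest falls after TAC in air. They are from RefSeq on GRCm38.p6, which held 8 of the 9 members, and are written 5′ to 3′ on the gene's strand. Capitals mark matches on either strand to the TATA box TATAAA, the E-box CACGTG, the aryl hydrocarbon receptor core GCGTG, the antioxidant response core TGACNNNGC, the CCAAT box and the GC box GGGCGG. The Cyp2e1 window is chr7:140763569-140763818 on the + strand, Nqo1 is chr8:107403206-107403455 on the - strand, Adh1 is chr3:138277335-138277584 on the + strand and Sult1a1 is chr7:126676419-126676668 on the - strand.
Cyp2e1: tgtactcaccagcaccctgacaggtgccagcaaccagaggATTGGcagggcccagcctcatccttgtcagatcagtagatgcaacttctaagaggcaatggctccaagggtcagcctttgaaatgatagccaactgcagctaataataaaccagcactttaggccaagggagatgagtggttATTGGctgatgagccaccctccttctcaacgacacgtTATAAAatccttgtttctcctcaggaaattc
Nqo1: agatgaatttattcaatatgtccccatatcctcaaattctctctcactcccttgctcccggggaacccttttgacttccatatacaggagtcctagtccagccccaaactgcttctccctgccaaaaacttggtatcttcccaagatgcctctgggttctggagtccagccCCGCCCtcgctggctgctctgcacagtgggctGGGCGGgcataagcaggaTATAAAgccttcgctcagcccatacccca
Adh1: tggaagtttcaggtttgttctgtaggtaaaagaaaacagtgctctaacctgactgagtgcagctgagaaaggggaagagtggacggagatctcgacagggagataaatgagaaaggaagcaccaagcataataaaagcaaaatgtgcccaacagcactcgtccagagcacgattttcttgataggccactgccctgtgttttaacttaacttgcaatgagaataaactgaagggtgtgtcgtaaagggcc
Sult1a1: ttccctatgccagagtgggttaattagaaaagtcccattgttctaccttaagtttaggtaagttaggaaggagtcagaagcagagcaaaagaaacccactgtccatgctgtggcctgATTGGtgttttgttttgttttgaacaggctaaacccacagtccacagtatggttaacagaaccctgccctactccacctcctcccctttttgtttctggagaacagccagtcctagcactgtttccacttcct
TATAAA began 31 bases before the Cyp2e1 start and 29 bases before the Nqo1 start, and 12.4% of 32851 such windows hold it. The Cyp2e1 window had 2 matches to CCAAT and the Sult1a1 window had 1, a motif in 33.8% of windows. Nqo1 had 2 matches to GGGCGG, which 32.7% of windows hold. None of the 4 windows matched the E-box (6.02% of windows), the receptor core (28.2%) or the antioxidant response core (10.2%), and the Adh1 window matched none of the 6 motifs. Among members whose windows are not shown, Gstm1 and Gstp1 matched the receptor core and Ephx1 and Gstt1 did not. It began 76 and 231 bases before the 2 Gstm1 starts and 13 bases before the Gstp1 start.

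Cyp2e1 was the only member whose level was called different between benzene and air, and its difference between the 2 exposures depended on the surgery. After TAC it was lower in benzene-exposed hearts, and after sham surgery its mean was higher in benzene-exposed hearts without passing the threshold. In TAC/Benzene libraries Cyp2e1 had 0.508 CPM at the lowest, 1.17 at the median and 1.48 at the highest, against 2.07, 2.48 and 2.97 CPM in TAC/Air libraries. Sham/Benzene libraries had 2.85, 3.90 and 5.38 CPM and Sham/Air libraries 1.65, 2.34 and 2.90 CPM in the same order. All 6 TAC/Benzene values thus lay below all 18 others, while Sham/Benzene overlapped Sham/Air only through its lowest library. TAC/Benzene against TAC/Air gave a log2 fold change of -1.14 ± 0.22 (SE, n = 6 each; adjusted p = 0.00931 in edgeR's quasi-likelihood test), and 1 of 9 members was called in a comparison that called 0.582% of all genes tested. A complete lack of overlap with TAC/Benzene lower was seen for 1.21% of all genes in that comparison. The share of all genes with TAC/Benzene below all 18 other libraries was not computed.

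TAC/Benzene against Sham/Benzene put Cyp2e1 lower by a log2 fold change of -1.87 ± 0.21 (edgeR adjusted p = 2.45e-07). TAC/Air against Sham/Air gave 0.07 ± 0.21 (edgeR adjusted p = 0.902, 95% interval -0.36 to 0.50). The difference between these responses to TAC, the surgery by benzene interaction, was -1.95 ± 0.30 on the log2 scale (edgeR adjusted p = 0.00173), in a test that called 0.169% of all genes and no other member. In sham hearts, benzene against air gave 0.81 ± 0.20 (edgeR adjusted p = 0.21, 95% interval 0.39 to 1.22), with 0.0221% of all genes called and none of the members. At an unadjusted p under 0.05 that comparison held 3 of 9 members, beside 777 genes or 5.73% of all genes tested. DESeq2 and voom called 0 members in it, and 0.206% and 0.0147% of all genes. Averaged over surgery, benzene against air gave -0.17 ± 0.15 for Cyp2e1 (edgeR adjusted p = 0.836), with 0 of 9 members called against 0.192% of all genes. At an unadjusted p under 0.05 the averaged test held 1 of 9 members, beside 7.24% of all genes. DESeq2 and voom called 0 members in it, and 0.759% and 1.35% of all genes.

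Hepatocytes express Cyp2e1 strongly, and Alb RNA was found in some Sham/Benzene libraries. All 15 hepatocyte markers had counts in Sham/Benzene 1, 3 and 4, whereas 8 to 12 of the 15 were at 0 in each of the other libraries. The summed hepatocyte markers ranged between 69.1 and 86.6 CPM in TAC/Benzene, 79.95 and 96.8 in TAC/Air, 65.2 and 275 in Sham/Benzene, and 63.2 and 81.5 in Sham/Air. Most of each sum outside the libraries with Alb was Trf, which was 58.1 to 92.1 CPM over the 4 groups, whereas Fga, Fgb, Fgg, Serpina1c, Cyp2c29 and Mup3 were at 0 in all TAC/Benzene, TAC/Air and Sham/Air libraries. Sham/Benzene 2 had 2 Alb counts and 54 Cyp2e1 counts (5.18 CPM). Without the 3 libraries with Alb, the 3 left had 2.85, 3.35 and 5.18 CPM of Cyp2e1. The log2 fold change of TAC/Benzene against Sham/Benzene was then -1.77 (edgeR adjusted p = 2.05e-05), the interaction -1.84 (edgeR adjusted p = 0.0115), and Sham/Benzene against Sham/Air 0.70 (edgeR adjusted p = 0.953). In TAC/Benzene against TAC/Air, Alb had at most 2 counts in all 12 libraries compared. The test of that comparison took its estimate of the spread from all 24 libraries, the 3 with Alb included. Without those 3 libraries it called 1 member and 0.678% of all genes. The part of liver RNA in the Cyp2e1 values was not tested. Summed markers of neutrophils were 42.5 to 51.9 CPM in TAC/Benzene, 9.77 to 14.7 in TAC/Air, 6.94 to 21.6 in Sham/Benzene and 10.5 to 14.6 in Sham/Air hearts, and the part of this shift in the Cyp2e1 difference was not tested. Summed lung epithelium markers were 0.934 to 1.89 CPM in TAC/Benzene, 0.864 to 1.9 in TAC/Air, 1.23 to 2.95 in Sham/Benzene and 7.1 to 12 in Sham/Air hearts, and their part was not tested. The 9 macrophage markers summed to 323 to 372 CPM in TAC/Benzene and 376 to 465 in TAC/Air, against 358 to 404 in Sham/Benzene and 345.5 to 423 in Sham/Air, so that TAC/Benzene did not overlap TAC/Air, and 1 of the 9 was called lower there. The 10 adipocyte markers summed to 27.2 to 42.0 CPM in TAC/Benzene, 28.0 to 41.0 in TAC/Air, 23.0 to 42.3 in Sham/Benzene and 16.5 to 39.0 in Sham/Air, most of it Cidea. Another of these, Cfd, had 0.873 to 1.52 CPM in TAC/Benzene, 1.64 to 3.38 in TAC/Air, 0.74 to 5.89 in Sham/Benzene and 1.46 to 3.61 in Sham/Air. Of the 3 adipocyte markers tested, 0 were called in TAC/Benzene against TAC/Air (median log2 -0.89) and 1 was called lower in TAC/Benzene against Sham/Benzene (median log2 -1.30), and the part of either cell type was not tested. In bulk samples, fewer cells of a type and less RNA per cell cannot be told apart.

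**Figure D2:**
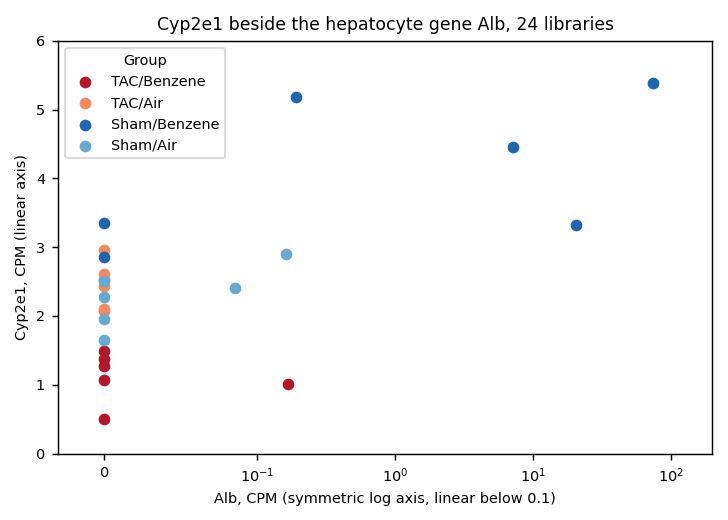
Cyp2e1 in CPM (vertical, linear axis) against Alb in CPM (horizontal, symmetric log axis that is linear below 0.1) for each of the 24 libraries, coloured by group. Alb was above 7 CPM in 3 Sham/Benzene libraries, while Sham/Benzene 2 had 5.18 CPM of Cyp2e1 with 2 Alb counts, and all TAC/Benzene libraries were below 1.5 CPM of Cyp2e1.

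More members were called between TAC and sham hearts than between benzene and air hearts. In air, 6 of 9 members passed the test in TAC against sham hearts, where 16.2% of all genes did: Ephx1 and Nqo1 were higher (8.81% of all genes were), and Gstt1, Gstm1, Adh1 and Sult1a1 were lower (7.35%). In benzene, 4 of 9 passed, where 16.6% of all genes did, and all 4 were lower (7.97% of all genes were, and 8.67% were higher): Cyp2e1, Gstt1, Gstm1 and Adh1. The median log2 fold change of the 9 members was -0.32 in air and -0.39 in benzene, beside -0.01 and -0.0045 over all genes tested. In air, libraries did not overlap for Nqo1, which was higher in all (5.78% of all genes), and for Adh1 and Sult1a1, which were lower in all (3.71%), together 9.49% of all genes. In benzene they did not overlap for Cyp2e1 and Gstm1, both lower (6.31% of all genes), beside 7.62% with all higher and 13.9% in all. Along with these changes, the summed fibroblast markers were 4962 to 5212 CPM in TAC/Benzene and 5471 to 5832 in TAC/Air hearts, against 3587 to 3916 in Sham/Benzene and 3646 to 4064 in Sham/Air. Summed cardiomyocyte markers were 55910 to 61780 CPM in TAC/Benzene and 51960 to 61240 in TAC/Air, against 67450 to 79440 in Sham/Benzene and 72390 to 108100 in Sham/Air. The part of these shifts in the members' values was not tested.

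**Figure D3:**
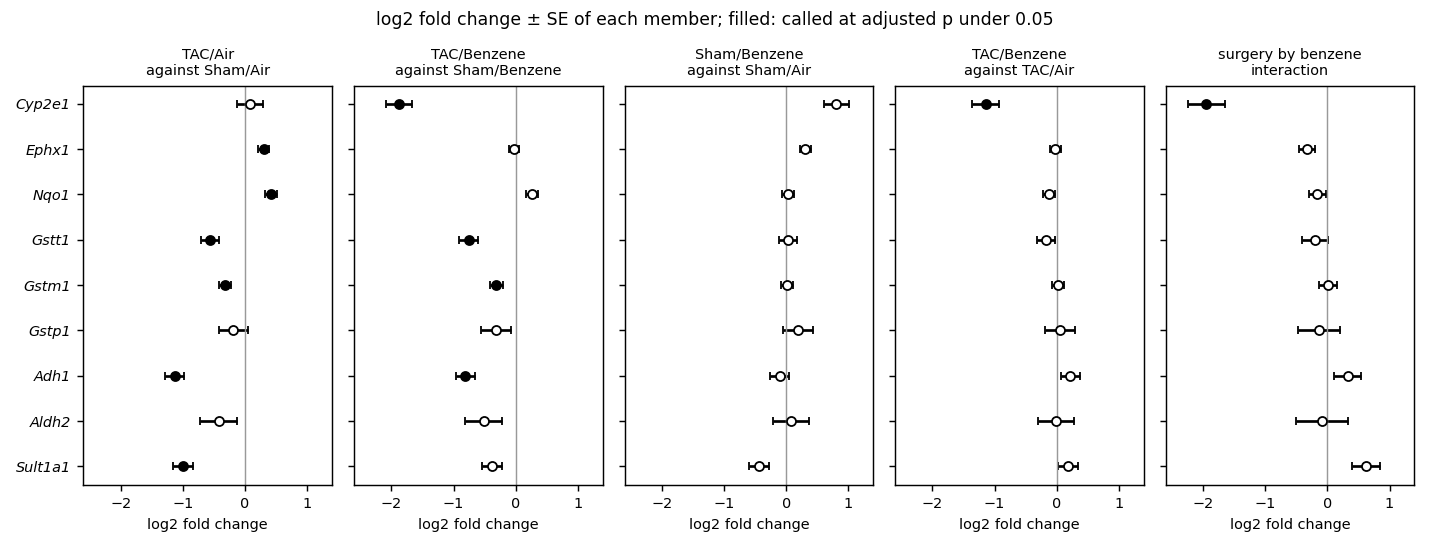
Log2 fold change of each member with its SE (horizontal axis) in 4 comparisons of groups and in the surgery by benzene interaction, where filled points were called at an adjusted p under 0.05. Cyp2e1 is the only filled point in the 2 panels on the right, and no point is filled in the comparison of the sham groups.

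Ephx1, microsomal epoxide hydrolase, had 69.5, 77.1 and 88.7 CPM (lowest, median and highest) in TAC/Air hearts and 49.7, 64.3 and 70.2 CPM in Sham/Air hearts. The groups overlapped only between the lowest TAC/Air and the highest Sham/Air libraries. Its log2 fold change was 0.30 ± 0.09 (edgeR adjusted p = 0.0175), and this call was lost without TAC/Air 1 (0.27, edgeR adjusted p = 0.0566) or without TAC/Air 3 (0.27, edgeR adjusted p = 0.0554). It was also lost with offsets for GC and length (0.17, edgeR adjusted p = 0.0695) and with only the 2 groups fitted (0.31, edgeR adjusted p = 0.102). In benzene, Ephx1 had 70.6, 76.5 and 83.1 CPM in TAC and 69.4, 78.5 and 86.4 CPM in sham hearts, and these ranges overlapped almost wholly (-0.03 ± 0.09, edgeR adjusted p = 0.908). Sham/Benzene against Sham/Air gave 0.31 ± 0.09 (edgeR adjusted p = 0.437).

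Nqo1, the quinone reductase, had 81.8, 88.8 and 109 CPM in TAC/Air hearts and 50.6, 68.9 and 78.4 CPM in Sham/Air hearts. Every TAC/Air library was above every Sham/Air library, and the log2 fold change was 0.42 ± 0.10 (edgeR adjusted p = 0.00357). In benzene it had 75.7, 84.5 and 93.2 CPM in TAC and 58.4, 70.7 and 81.0 CPM in sham hearts, which overlapped through Sham/Benzene 1. That difference of 0.26 ± 0.10 did not pass the threshold (edgeR adjusted p = 0.074), and did so without Sham/Benzene 1 (0.30, edgeR adjusted p = 0.0499), with DESeq2 (0.26, adjusted p = 0.0272) and with offsets for GC and length (0.29, edgeR adjusted p = 0.018).

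Among the glutathione transferases, the theta-class gene Gstt1 was lower after TAC in both exposures. It had 9.43, 11.3 and 13.5 CPM in TAC/Benzene against 12.4, 20.5 and 23.0 CPM in Sham/Benzene hearts (-0.76 ± 0.15, edgeR adjusted p = 3.90e-04). In air it had 10.9, 13.3 and 14.7 CPM in TAC against 12.5, 20.7 and 22.6 CPM in sham hearts (-0.56 ± 0.15, edgeR adjusted p = 0.00758). The overlap came from Sham/Benzene 3 in the first pair and from Sham/Air 1 in the second. Gstm1 was lower by a smaller amount, with 157.7, 179.5 and 195 CPM in TAC/Benzene against 200.1, 224 and 239.9 CPM in Sham/Benzene hearts, which did not overlap (-0.31 ± 0.10, edgeR adjusted p = 0.0302). In air it had 162, 176 and 193 CPM in TAC against 152, 227 and 264 CPM in sham hearts (-0.32 ± 0.10, edgeR adjusted p = 0.0258), overlapping through Sham/Air 1. The Gstm1 call in benzene was lost without any of Sham/Benzene 1, 4 or 6 or TAC/Benzene 1, 2 or 6 (-0.31 to -0.28, edgeR adjusted p between 0.0532 and 0.0765), and without Sham/Benzene 1, 3 and 4 together (-0.28, edgeR adjusted p = 0.177). In air it was lost without any of Sham/Air 4 or 6 or TAC/Air 4, 5 or 6 (-0.31 to -0.27, edgeR adjusted p between 0.0519 and 0.0742), and with only the 2 groups fitted (-0.32, edgeR adjusted p = 0.142).

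Gstp1, the pi-class transferase, was one of the members that Sham/Air 1 decided. It had 67.5, 75.1 and 80.3 CPM in TAC/Benzene against 71.0, 99.2 and 104 CPM in Sham/Benzene hearts (-0.32 ± 0.24, edgeR adjusted p = 0.445). In air it had 59.2, 73.4 and 79.5 CPM in TAC against 13.4, 92.3 and 103 CPM in sham hearts (-0.19 ± 0.24, edgeR adjusted p = 0.664). The other 5 Sham/Air libraries had 85.7 to 103 CPM and did not overlap TAC/Air. Without Sham/Air 1 the log2 fold change in air was -0.40 (edgeR adjusted p = 0.00122).

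Adh1, an alcohol dehydrogenase that also oxidises retinol, had the largest fall of the 9 in air. It had 8.81, 11.7 and 13.8 CPM in TAC/Air against 23.2, 25.4 and 27.5 CPM in Sham/Air hearts, with no overlap and with Sham/Air 1 among its fellows (-1.13 ± 0.16, edgeR adjusted p = 6.67e-06). In benzene it had 12.1, 13.2 and 15.4 CPM in TAC against 11.8, 25.0 and 31.8 CPM in sham hearts (-0.81 ± 0.15, edgeR adjusted p = 3.63e-04). That overlap came from Sham/Benzene 3 alone, whose group otherwise began at 20.8 CPM, and the value without it was -0.95 (edgeR adjusted p = 7.65e-07). Aldh2, the mitochondrial aldehyde dehydrogenase, had 139, 203 and 232 CPM in TAC/Benzene against 192, 281 and 349 CPM in Sham/Benzene (-0.51 ± 0.30, edgeR adjusted p = 0.291). In air it had 119.8, 203 and 254 CPM in TAC against 46.3, 290.4 and 364 CPM in sham hearts (-0.42 ± 0.30, edgeR adjusted p = 0.377). Both pairs overlapped, and without Sham/Air 1 the log2 fold change in air was -0.64 (edgeR adjusted p = 0.0186).

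Sult1a1, a phenol sulfotransferase, was lower after TAC in air, with 20.5, 25.7 and 27.3 CPM in TAC/Air against 40.3, 43.2 and 92.6 CPM in Sham/Air hearts. No library of one group reached the other, and the log2 fold change was -1.01 ± 0.16 (edgeR adjusted p = 5.63e-05). Sham/Air 1 held the highest value, and without it the difference was -0.77 (edgeR adjusted p = 1.06e-06). In benzene it had 26.9, 27.9 and 31.8 CPM in TAC against 27.0, 37.6 and 46.1 CPM in sham hearts (-0.39 ± 0.16, edgeR adjusted p = 0.109). Sham/Benzene 3 was the library that overlapped, and without it the value was -0.47 (edgeR adjusted p = 0.0432). The interaction of Sult1a1 was 0.62 ± 0.23 (edgeR adjusted p = 0.746), and 0.38 without Sham/Air 1, so a different response to TAC in the 2 exposures was not shown. With voom, which weights libraries by quality, 4 more members passed in benzene: Nqo1 (0.22, adjusted p = 0.00681), Gstp1 (-0.37, adjusted p = 9.40e-04), Aldh2 (-0.60, adjusted p = 0.00926) and Sult1a1 (-0.39, adjusted p = 1.21e-04). Voom also called more genes as a whole in that comparison, 33% of all genes where the main fit called 16.6%.

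Between benzene and air, none of the 8 members other than Cyp2e1 passed the test after either surgery. After TAC their log2 fold changes lay between -0.17 ± 0.15 (Gstt1) and 0.22 ± 0.16 (Adh1), with 95% intervals of -0.19 to 0.22 for Gstm1 and -0.20 to 0.16 for Ephx1. The interval for Aldh2 ran between -0.62 and 0.60, so that a smaller difference could not be told from 0 with these libraries. After sham surgery they lay between -0.44 ± 0.16 (Sult1a1, edgeR adjusted p = 0.698) and 0.31 ± 0.09 (Ephx1), and the Sult1a1 value was -0.21 without Sham/Air 1. In each of the 8, Sham/Benzene overlapped Sham/Air, where 0.28% of all genes did not overlap, and TAC/Benzene overlapped TAC/Air, where 2.7% did not.

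Of 88 other genes of benzene and xenobiotic metabolism, 65 passed the filter on low counts. In TAC/Benzene against Sham/Benzene hearts 8 were called higher and 13 lower, where 8.67% and 7.97% of all genes were. In TAC/Air against Sham/Air hearts 10 were higher and 15 lower, where 8.81% and 7.35% of all genes were. The list median was -0.11 in benzene and -0.13 in air on the log2 scale. Of the glutathione transferases, the sub-list with the most genes tested, 6 of 16 were lower in benzene and 7 of 16 in air, with 0 higher in either. Both epoxide hydrolases tested were called in each exposure, with Ephx3 higher and Ephx2 lower. Gstk1, the kappa-class transferase of mitochondria and peroxisomes, changed by -0.79 ± 0.08 on the log2 scale in benzene (edgeR adjusted p = 4.24e-08) and -0.72 ± 0.08 in air (edgeR adjusted p = 2.87e-07). Adhfe1, a mitochondrial hydroxyacid-oxoacid transhydrogenase, changed by -0.76 ± 0.07 in benzene and -0.62 ± 0.07 in air, and Aldh9a1, an aldehyde dehydrogenase of carnitine synthesis, by -0.74 ± 0.10 in benzene and -0.38 ± 0.10 in air. Ephx2, soluble epoxide hydrolase, changed by -0.50 ± 0.09 in benzene and -0.47 ± 0.09 in air, and Gsta3 by -0.72 ± 0.18 in benzene and -0.88 ± 0.19 in air.

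Calls in the other direction included a peroxidase and several oxidising enzymes, given here as log2 fold changes ± SE. Ptgs2, the inducible cyclooxygenase, whose peroxidase activity can oxidise phenols, rose by 1.44 ± 0.21 on the log2 scale in benzene (edgeR adjusted p = 1.11e-05) and 1.26 ± 0.22 in air (edgeR adjusted p = 1.86e-04). Cyp1b1, a P450 of stromal cells, rose by 1.07 ± 0.18 in benzene and 0.69 ± 0.18 in air. Ephx3, an epoxide hydrolase, rose by 0.89 ± 0.16 in benzene and 0.72 ± 0.17 in air, and Cyb5r3, a cytochrome b5 reductase, by 0.46 ± 0.12 in benzene and 0.54 ± 0.12 in air. Aldh1a3, which makes retinoic acid, had 0.48 ± 0.18 in benzene (edgeR adjusted p = 0.064) and rose by 0.91 ± 0.18 in air (edgeR adjusted p = 8.30e-04). Cyp1a1, a P450 induced through the aryl hydrocarbon receptor, had 0, 0.241 and 0.355 CPM in TAC/Benzene and 0.959, 4.04 and 28.9 CPM in Sham/Benzene hearts. In air it had 0.0791, 0.208 and 0.935 CPM in TAC against 1.14, 2.36 and 3.90 CPM in sham hearts, and neither pair overlapped. In air its fitted log2 fold change was -2.78 ± 0.77 (edgeR adjusted p = 0.0123). The fitted value in benzene, -5.11 ± 0.75 (edgeR adjusted p = 1.31e-05), depends on the prior count, since TAC/Benzene libraries held 0 to 4 counts. The highest Cyp1a1 value was in Sham/Benzene 1, the library with the most Alb counts, and the next highest in that group was 6.09 CPM in Sham/Benzene 6. Sham/Benzene 3 and 4, which also held Alb, had the lowest Cyp1a1 values of the group, at 3.33 and 0.959 CPM. The part of liver RNA in the Cyp1a1 values was not tested. Between benzene and air, the main edgeR fit called 0 of the 65 genes after either surgery, averaged over surgery or in the interaction. At an unadjusted p under 0.05 there were 2 after TAC (beside 6.17% of all genes), 5 after sham surgery (5.73%), 5 averaged (7.24%) and 2 in the interaction (4.69%). DESeq2 called 0 in these 4 tests. Voom called 1 higher after TAC, where it called 4.08% of all genes, and 1 lower averaged over surgery, where it called 1.35%. With edgeR after TAC, 1 was higher with only the 2 groups fitted (2.08% of all genes called). Without Sham/Air 1 and Sham/Benzene 1, 3 and 4, 1 was higher after TAC (2.68%). Offsets for GC and length without Sham/Air 1 gave 1 higher and 1 lower after TAC (4.4%), and 3 lower averaged over surgery (2.31%).

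**Figure D4:**
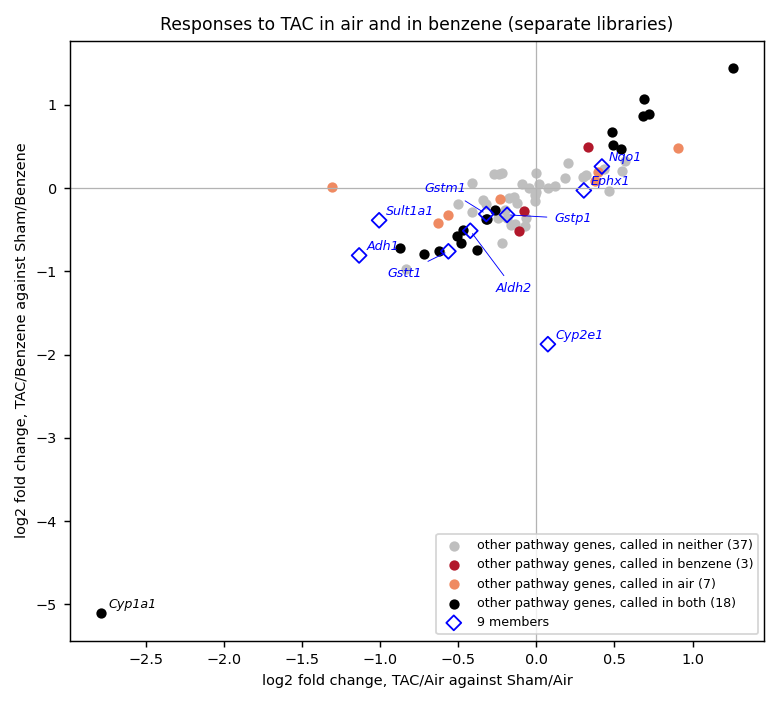
Log2 fold change of TAC/Benzene against Sham/Benzene (vertical axis) and of TAC/Air against Sham/Air (horizontal axis), which share no libraries, for the 65 other pathway genes (dots, coloured by where they were called) and the 9 members (diamonds). Of the members, 6 lie below 0 on both axes, and Cyp2e1 lies at -1.87 in benzene and 0.07 in air.

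Several members also moved with the GC trend of the libraries within a group, and each group held libraries with a trend above and below 0. In both sham groups replicates 1 to 3 were below 0 and 4 to 6 above, and in TAC/Air it was the reverse. In TAC/Benzene replicates 4 and 6 were below 0. The sides therefore follow runs of replicate numbers, and the GC trend and anything else tied to those numbers cannot be told apart. Aldh2 in libraries above 0 had 200.9 to 232 CPM in TAC/Benzene, 238 to 254 in TAC/Air, 333 to 349 in Sham/Benzene and 348 to 364 in Sham/Air. In libraries below 0 it had 139 to 162 CPM in TAC/Benzene, 119.8 to 167 in TAC/Air, 192 to 229 in Sham/Benzene and 46.3 to 233 in Sham/Air. Gstp1 and Sult1a1 in TAC/Air were below every Sham/Air library among those above 0, at 76.6 to 79.5 against 91.0 to 103 CPM and at 25.7 to 27.3 against 40.3 to 42.9 CPM. Among those below 0, Gstp1 overlapped, with 59.2 to 70.2 CPM in TAC/Air and 13.4 to 93.6 in Sham/Air. Sult1a1 did not overlap there, with 20.5 to 25.8 CPM in TAC/Air and 43.5 to 92.6 in Sham/Air. Between the same groups, Gstt1, Gstm1 and Aldh2 were lower in TAC/Air above 0 and overlapped below 0. Adh1 was lower and Nqo1 higher in TAC/Air on both sides, and Cyp2e1 overlapped on both. Ephx1 was higher in TAC/Air than in Sham/Air libraries on both sides, at 81.5 to 88.7 against 64.2 to 70.2 CPM above 0 and at 69.5 to 72.8 against 49.7 to 64.4 CPM below 0. The same Sham/Air libraries were also below Sham/Benzene for Ephx1, which had 80.8 to 86.4 CPM above 0 and 69.4 to 76.3 below 0. This separation was thus not particular to TAC. Cyp2e1 was lower in TAC/Benzene than in TAC/Air libraries on both sides, at 0.508 to 1.48 against 2.07 to 2.61 CPM above 0 and at 1.06 to 1.37 against 2.11 to 2.97 CPM below 0. These splits have 2 to 4 libraries a group and were given no test. With so few libraries a lack of overlap is easily reached, and the share of all genes that reach it was not computed. The split values are therefore descriptions only, and the part of the GC trend in the differences was not tested by them.

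**Figure D5:**
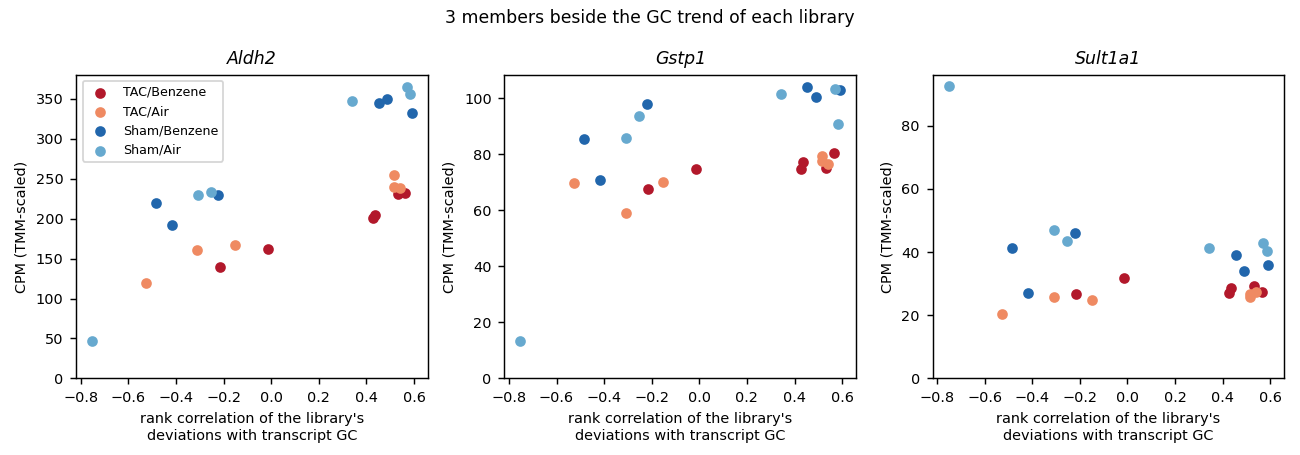
Aldh2, Gstp1 and Sult1a1 in CPM (vertical axes from 0) against the rank correlation of each library's deviations with transcript GC content (horizontal axis), coloured by group. Sham/Air 1 is the point farthest to the left in each panel, and Aldh2 spans 119.8 to 254 CPM within TAC/Air alone.

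Genes whose log2 CPM followed a member most closely over the 24 libraries, after the group means were taken out, were looked for among 12994 genes. Cyp2e1 went most with Agbl2 (r = 0.759, rho = 0.8) and Cobl (r = 0.744, rho = 0.676). Sult1a1 went with Ankrd1 (r = 0.953, rho = 0.814) and Adh1 with Cyp26b1 (r = 0.876, rho = 0.563). Without the 2 libraries farthest from the median of the member, r was 0.731 for Agbl2, 0.844 for Ankrd1 and 0.526 for Cyp26b1, so the last of these rested largely on Sham/Benzene 1 and 3. The other called members had best partners with r between 0.896 and 0.934: Gpn2 for Ephx1, Eif3i for Nqo1, Khk for Gstt1 and Cdc42ep2 for Gstm1. Without the 2 farthest libraries, Sham/Air 1 among them each time, these r were 0.886, 0.825, 0.789 and 0.827. All points share their library's depth and GC trend, and these correlations are descriptions.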

How the data were processed

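Raw counts per gene symbol for 24 libraries are the counts the authors deposited. Per the labels' protocols, poly-A RNA was sequenced as read pairs of 150 bases, and per the submitters' processing notes the tools were STAR, FastQC 0.11.9 and DESeq2, with build mm9. No source used here states how genes were counted, with which annotation or on which strand. Counts were fitted together for all 4 groups with edgeR 4.0.16 in R 4.3.3 (quasi-likelihood test, TMM scaling, filterByExpr with a minimum count of 10 and total of 15, Benjamini-Hochberg adjustment over 13571 genes, called at an adjusted p under 0.05). Genes left out by the filter held 0.0747% of counts. Alternatives used DESeq2 1.42.0, limma 3.58.1 (voom), other scalings, filters and samples, a replicate block, and offsets for GC and length. Lengths were the longest GENCODE vM21 transcripts, matched by symbol (96.6%). The fit was tested on simulated data. Depth was 4170660 to 14632231 counts. The 9 members were all described; from the other list, up to 4 called genes with the smallest p in each direction were named (1 of them is not reported here), and for each called member the 2 genes most like it were sought. Members and lists were chosen with earlier results of these data known. The splits by GC trend were chosen after the data were seen.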

Additional observations from a re-analysis of the deposited data

Results flagged for a closer look

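Of 36 sets of 6 libraries (9 members in 4 groups), 4 held a library far from the other 5, where chance gives about 1 in 20. Sham/Air 1 was that library for Ephx1 (49.7 CPM, with the others at 64.2 to 70.2), for Gstp1 (13.4 CPM, with the others at 85.7 to 103) and for Sult1a1 (92.6 CPM, with the others at 40.3 to 46.9). TAC/Air 4 was low for Sult1a1 at 20.5 CPM, with the next library at 24.9 CPM. Sham/Air 1 also had the fewest counts (4170660) and the lowest GC trend (-0.752), and the part of these in its values was not tested.

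The response of Cyp2e1 to TAC differed between benzene and air by -1.95 on the log2 scale (edgeR adjusted p = 0.00173), with all 6 TAC/Benzene libraries below all 6 Sham/Benzene libraries, and TAC/Air overlapping Sham/Air. The adjusted p over the other settings ran between 2.63e-06 and 0.0125 in edgeR, DESeq2 and voom.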

How the results depend on the processing

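Of 576 values of the members under other settings, 541 stayed on their side of the threshold, 8 lost a call, 27 gained one and 0 called values changed sign (35 uncalled values did); leaving out 1 library at a time gave 847, 13, 4 and 0 of 864. Cyp2e1 kept its 3 calls under every setting and omission run: the interaction ran between -2.05 and -1.78 over omissions (edgeR adjusted p 0.00153 to 0.00574), and TAC/Benzene against TAC/Air between -1.24 and -0.98 (edgeR adjusted p 0.0108 to 0.0325). Depth limits Cyp2e1 most, at 7 to 65 counts a library.

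In TAC/Benzene against Sham/Benzene the members called were 8 with voom, 8 with only the 2 groups fitted, 8 with GC and length offsets without Sham/Air 1, and 8 without Sham/Air 1 and Sham/Benzene 1, 3 and 4, where Nqo1, Gstp1, Aldh2 and Sult1a1 were gained. In the same order, these settings called 33%, 25.5%, 35.8% and 22.8% of all genes, beside 16.6% in the main fit. Gstm1 lost its call with no filter (edgeR adjusted p 0.0539 in benzene and 0.0596 in air), with only the 2 groups in air (0.142) and without Sham/Benzene 1, 3 and 4 in benzene (0.177). With offsets and without Sham/Air 1, 1 member (Ephx1, 0.27, edgeR adjusted p = 0.0219) was called in Sham/Benzene against Sham/Air and 2 in the interaction (Ephx1, -0.31, edgeR adjusted p = 0.0237). That setting called 0.241% of all genes in Sham/Benzene against Sham/Air and 1.3% in the interaction. Settings that leave out Sham/Air 1 with other libraries or offsets were chosen after seeing the data.

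Genes called in TAC/Air against Sham/Air were 2193, and 3734 with voom, 1278 with only the 2 groups, 3743 with offsets, 4350 with offsets without Sham/Air 1 and 3439 without it and Sham/Benzene 1, 3 and 4. For TAC/Benzene against Sham/Benzene they were 2257, and 4479 with voom, 3633 with offsets and 4891 with offsets without Sham/Air 1. For Sham/Benzene against Sham/Air they were 3, and 28 with DESeq2, 1 with no filter, 1 with only the 2 groups, 11 with offsets, 33 with offsets without Sham/Air 1, 6 without Sham/Benzene 1, 3 and 4, and 8 without all 4 libraries. For TAC/Benzene against TAC/Air they were 79, and 171 with DESeq2, 554 with voom, 276 with only the 2 groups, 230 with offsets, 601 with offsets without Sham/Air 1 and 371 without all 4 libraries. Averaged over surgery they were 26, and 103 with DESeq2, 183 with voom, 129 with offsets, 316 with offsets without Sham/Air 1 and 97 without all 4. In the interaction they were 23, and 57 with DESeq2, 91 with voom, 57 with offsets, 178 with offsets without Sham/Air 1 and 57 without all 4. The cause of these shifts was not tested.

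Leaving out 1 library gave 1907 to 3169 genes in TAC/Air against Sham/Air (5 to 8 members, the most without Sham/Air 1), 1929 to 2233 in TAC/Benzene against Sham/Benzene (3 to 5 members), 1 to 5 in Sham/Benzene against Sham/Air, 52 to 68 in TAC/Benzene against TAC/Air, 16 to 101 averaged over surgery and 15 to 49 in the interaction, the last 2 highest without Sham/Air 1.

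Replicate numbers were not taken to pair the libraries, since no group pair had every same-numbered correlation of deviations over 0.1. They ran between -0.095 and 0.596 for TAC/Benzene with TAC/Air, -0.084 and 0.635 for Sham/Benzene with Sham/Air, and -0.685 and 0.172 for TAC with sham groups, and at most 3 of 6 libraries correlated best with their own number. With the replicate block, 46 genes were called in TAC/Benzene against TAC/Air, 15 averaged over surgery and 14 in the interaction, where Cyp2e1 was at -1.94 (edgeR adjusted p = 0.0125), and Gstm1 lost its call in benzene (0.0656) and air (0.0648).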
